A study of Mus musculus with 21 samples.

Results

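The comparison of synovial fibroblasts from 3-week-old Tg197 mice with those of wild-type (WT) mice of the same age was described over 12561 autosomal regions, all rows on chromosomes 1 to 19 of the 13125 rows listed for this age. The series lists 49307 regions in all. Both groups held 3 libraries of cultured synovial fibroblasts at passages 4 to 5 from mice of mixed CBA x C57BL/6J strain, and the only labelled difference between them is the genotype. Tg197 mice overexpress human TNF from a transgene, which leads to arthritis of many joints, and the series calls 3 weeks the early stage. Whether the libraries of a group came from separate mice or cultures is not stated, so the p-values rest on a spread between libraries that may be technical. No batch is labelled. The treatment columns of the table were taken to hold Tg197 and the control columns WT.

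Synovial fibroblasts line the joint, secrete lubricant and matrix, and in inflammatory arthritis become invasive and produce cytokines and proteases. DNA methylation in mammals sits mainly on cytosines of CpG dinucleotides. Dense methylation at a promoter accompanies stable silencing, whereas gene bodies are usually methylated in active and inactive genes alike. Promoters of many germ-line genes are among the few CpG-rich promoters that are methylated in all somatic cells. MethylCap-seq captures methylated fragments with a methyl-CpG-binding protein and counts them, so a high read value reflects methylation together with CpG content. The values are normalized reads, that is, reads of a region divided by a size factor for each library. A region is called gained or lost below when capture in Tg197 was higher or lower and limma on log2(value + 1) gave an adjusted p under 0.05. Changes are log2 differences, Tg197 minus WT, on that scale. A gene can hold several regions, and values given after a gene's name are those of 1 region unless more are stated.

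The listed promoters nearest to a transcription start are shown first, to show how much the CpG content around the start varied among them. Of the 56 regions within 250 bp of a start, 34 carried a gene name found in the RefSeq promoter table (build GRCm38.p6), and 32 of those had a single promoter window of 300 bases. The capture coordinates are in mm9 and were not converted. Each sequence below runs from upstream of the start into the first transcribed bases, on the strand of the gene, with CpG dinucleotides in capitals. The first 4 belong to genes of the germ line that lost capture, and the last 2 to genes that gained it.
Ddx4: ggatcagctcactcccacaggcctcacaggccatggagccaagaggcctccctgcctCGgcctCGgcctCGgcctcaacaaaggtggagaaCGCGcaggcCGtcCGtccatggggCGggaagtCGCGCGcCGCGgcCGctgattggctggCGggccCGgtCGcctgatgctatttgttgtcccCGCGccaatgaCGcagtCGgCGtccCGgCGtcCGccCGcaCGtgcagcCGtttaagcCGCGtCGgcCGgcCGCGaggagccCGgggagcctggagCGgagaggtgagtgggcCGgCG
Mael: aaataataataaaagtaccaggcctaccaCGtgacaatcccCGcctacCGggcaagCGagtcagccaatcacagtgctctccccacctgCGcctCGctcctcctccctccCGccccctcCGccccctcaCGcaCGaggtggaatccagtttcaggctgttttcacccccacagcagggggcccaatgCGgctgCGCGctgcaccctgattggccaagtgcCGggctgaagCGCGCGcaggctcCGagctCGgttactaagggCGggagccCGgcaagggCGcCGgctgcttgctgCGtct
Asz1: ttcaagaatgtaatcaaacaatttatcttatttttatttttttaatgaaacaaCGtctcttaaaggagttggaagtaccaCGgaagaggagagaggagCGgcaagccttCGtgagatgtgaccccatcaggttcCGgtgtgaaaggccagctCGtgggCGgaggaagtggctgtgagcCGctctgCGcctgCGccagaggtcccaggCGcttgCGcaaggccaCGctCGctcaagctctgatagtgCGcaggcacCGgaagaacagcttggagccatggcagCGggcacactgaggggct
Tex101: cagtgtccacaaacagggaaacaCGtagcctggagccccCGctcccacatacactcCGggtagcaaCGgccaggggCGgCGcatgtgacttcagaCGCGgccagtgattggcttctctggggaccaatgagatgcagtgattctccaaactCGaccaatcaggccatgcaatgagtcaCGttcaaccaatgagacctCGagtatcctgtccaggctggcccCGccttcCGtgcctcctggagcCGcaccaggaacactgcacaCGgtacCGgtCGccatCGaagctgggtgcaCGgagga
Il31ra: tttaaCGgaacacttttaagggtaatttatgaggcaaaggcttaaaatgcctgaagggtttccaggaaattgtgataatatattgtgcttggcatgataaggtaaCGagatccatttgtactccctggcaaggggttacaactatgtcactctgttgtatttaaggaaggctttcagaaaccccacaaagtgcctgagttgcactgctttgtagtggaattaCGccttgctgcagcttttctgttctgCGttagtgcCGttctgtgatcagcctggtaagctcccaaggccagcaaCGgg
Lrrc52: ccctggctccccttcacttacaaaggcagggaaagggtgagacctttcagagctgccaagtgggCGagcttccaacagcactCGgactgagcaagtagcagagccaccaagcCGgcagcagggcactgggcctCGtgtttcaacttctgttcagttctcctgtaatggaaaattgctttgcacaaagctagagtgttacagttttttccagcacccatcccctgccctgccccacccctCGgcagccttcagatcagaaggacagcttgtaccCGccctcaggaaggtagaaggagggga
In GRCm38.p6 these windows lie at chr13:112652261-112652560, chr1:166238695-166238994, chr6:18109012-18109311, chr7:24672001-24672300, chr13:112580613-112580912 and chr1:167466731-167467030, each on the minus strand. The Ddx4 window holds 38 CpG dinucleotides (the letters CG, counted once for both strands), a number that 4.95% of the 32851 windows in the table reach. Mael has 24 (reached by 19.98% of all windows), Tex101 has 19 (28.1%) and Asz1 has 17 (31.4%), against 6 in Il31ra and in Lrrc52 (56.4%). Over the 32 matched promoters, the median was 8 at the 18 that lost capture, 6 at the 7 that gained it, 8 at the 7 not past limma, and 7 in the whole table. Counts ran from 1 to 38 at promoters that lost capture and from 5 to 20 at those that gained it, so the sequences shown are examples and not typical of either group. The windows run mainly upstream of the start, whereas the centres of the Ddx4 and Il31ra regions lie 241.5 and 218.5 bp downstream of it, so captured CpG sites can lie outside the sequence shown.

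Among these regions, 6 of 9 promoters grouped as germ-line lost capture and 1 gained it. The group was assembled after its values had been seen and is not a full list of germ-line genes among the 56 regions. Lrrc52, which gained, was left outside it, as were other near-start genes that gained or lost capture. Losses were common around the group, since 33 of all 56 near-start regions, and 27 of the 40 at 100 reads or more, were lost. Ddx4, the helicase gene that marks germ cells (chromosome 13, 113441951 to 113442600 in mm9, as for all region coordinates that follow), gave 664, 506 and 446 normalized reads in WT libraries 1 to 3 and 407, 372 and 367 in Tg197 libraries 1 to 3. Every Tg197 value lay below every WT value (log2 change -0.48, standard error 0.11, limma adjusted p = 0.00209, or -0.32 without WT library 1). Mael, which acts in transposon silencing by small RNAs (chromosome 1, 168168651 to 168169450), gave 724, 542 and 630.5 in WT and 464, 488 and 464 in Tg197, again without overlap (log2 change -0.41, standard error 0.09, limma adjusted p = 0.00183). Asz1, a partner in the same small-RNA pathway, fell from 473 ± 73.1 to 375 ± 9.72 (mean ± SD, n = 3 per group, log2 change -0.33, or -0.20 without WT library 1), and Tex101, a surface protein gene of germ cells, from 380.04 ± 9.36 to 301 ± 17.03 (-0.34). Hormad1, a meiotic chromosome gene, and Piwil1, which encodes a small-RNA binding protein of spermatocytes, passed with smaller losses of -0.22 and -0.16, but not by limma without a mean trend. Piwil1 also failed to pass when any library but Tg197 library 2 was left out, and stood at -0.11 without Tg197 library 3. The protamine gene Prm2 (-0.15) and the testis cytochrome c gene Cyct (0.13) did not pass, though Prm2 passed without Tg197 library 3. Eif4e1b, a translation factor gene of oocytes (chromosome 13, 54885151 to 54885700), was captured at far lower levels, 3.76, 5.43 and 9.09 in WT and 18.4, 18.9 and 19.8 in Tg197, and it gained (log2 change 1.56, standard error 0.35, limma adjusted p = 0.00216). These losses depended on the scaling of the libraries. When the libraries were recentred to equal medians over the listed regions, 0.26 was added to every log2 change and 0 of the 6 germ-line losses passed limma (1 had an unadjusted p under 0.05). Ddx4, Mael, Asz1 and Tex101 then stood at -0.21, -0.15, -0.06 and -0.07, while Hormad1, Piwil1 and Prm2 turned to 0.04, 0.10 and 0.11. Cyct rose to 0.40 and then passed as a gain (limma adjusted p = 0.00058). With Eif4e1b, the recentred group held 2 gains and 0 losses.

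Promoters of eye genes formed a second group, also put together after the values were seen. Capture fell at Rcvrn, the calcium sensor of photoreceptors (chromosome 11, 67508701 to 67509200), with 291, 252 and 234 in WT and 198, 174 and 189 in Tg197 (log2 change -0.46, standard error 0.09, limma adjusted p = 0.00162). All 3 Tg197 libraries were below all WT libraries, and the loss passed also after recentring (-0.20). Smaller losses at Prph2 (a disc membrane protein of photoreceptors, -0.18) and Crygc (a lens crystallin, -0.22) turned to 0.08 and 0.05 after recentring and did not pass there. Prph2 and Crygc also lost the call when single libraries were left out.

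**Figure D1:**
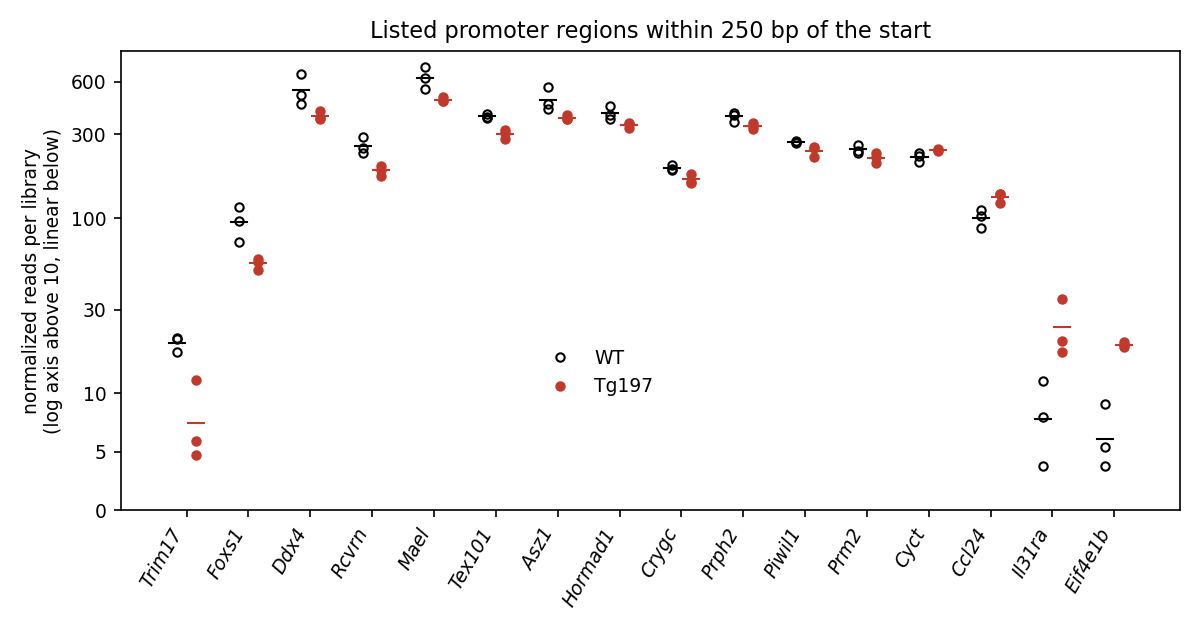
Normalized reads of each library (vertical axis, logarithmic above 10 and linear below) at promoter regions within 250 bp of a start, with open circles for WT, filled circles for Tg197 and bars at the means (n = 3 per group). Germ-line and eye promoters other than Eif4e1b sit between 159 and 724 reads, with Tg197 below WT except at Cyct, while Il31ra and Eif4e1b, all at or below 34.6, are higher in Tg197. After recentring, Cyct, Hormad1, Piwil1, Prm2, Prph2 and Crygc all have positive changes.

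The promoters described next held their direction and call after recentring. Because 0.26 is added to every change, a gain can only grow, so recentring bears on the losses alone. Over all 56 near-start regions, recentring turned 13 gains and 33 losses into 18 and 6. Capture rose at Il31ra, a cytokine receptor gene whose product binds IL-31 together with the oncostatin M receptor (chromosome 13, 113370401 to 113370900), with 3.76, 11.8 and 7.95 normalized reads in WT libraries 1 to 3 and 17.3, 19.8 and 34.6 in Tg197 libraries 1 to 3. The lowest Tg197 value was above the highest WT value (log2 change 1.55, standard error 0.39, limma adjusted p = 0.00275, 1.81 recentred). At Lrrc52, an auxiliary subunit gene of a potassium channel (chromosome 1, 169396501 to 169397050), the values were 14.1, 16.3 and 13.6 in WT and 30.2, 39.6 and 30.7 in Tg197, and all Tg197 libraries were above all WT libraries (log2 change 1.13, standard error 0.26, limma adjusted p = 0.00222, 1.39 recentred). Capture also rose at the eosinophil chemokine gene Ccl24, from 100.3 ± 12.1 to 132 ± 8.83 (0.40). Capture fell at Trim17, a ubiquitin ligase gene (chromosome 11, 58776851 to 58777350), with 20.7, 17.2 and 20.4 in WT and 11.9, 4.71 and 5.93 in Tg197 (log2 change -1.35, standard error 0.35, limma adjusted p = 0.00306, -1.09 recentred), and at Foxs1, a forkhead factor gene, from 95.3 ± 21.9 to 55.2 ± 3.84 (-0.75, -0.49 recentred). Mir145, which encodes a microRNA of smooth muscle and mesenchymal cells, lost capture 128.5 bp upstream of its start, with 37.6, 56.1 and 57.9 in WT and 31.3, 22.6 and 21.8 in Tg197 (log2 change -0.97, standard error 0.24, limma adjusted p = 0.00259). Its groups did not overlap, and the loss passed after recentring (-0.70).

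Across the autosomes, 10726 of 12561 regions passed limma (85.4%), of which 5062 gained (40.3%) and 5664 lost (45.1%). The 3 Tg197 and 3 WT values did not overlap at 86.5% of regions. These high shares are the background for every count below, since the listed regions appear to have been selected for a difference before deposit. Gains and losses were of different kinds. Below a mean of 100 normalized reads, 87.0% of 5418 regions were higher in Tg197, with a median log2 change of 0.99. At 100 reads or more, 10.04% of 7143 regions were higher, with a median of -0.23. Large changes were therefore mostly gains at weakly captured regions: 2989 regions (23.8%) passed with a change of at least 1 log2 unit, 2679 gained and 310 lost. Beyond 2 log2 units the balance was closer, 28 gains and 23 losses. The within-group SD of log2 values fell from a median of 0.37 below 20 reads to 0.08 between 200 and 500. The median library value at large gains was 11.3, 13.6 and 12.5 in WT libraries 1 to 3 and 28.1, 28.3 and 29.7 in Tg197 libraries 1 to 3. WT library 1 was the lowest of all 6 at 53.0% of these regions, and without it 2026 large gains were counted.

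The direction of small changes rested on the scaling. After recentring, 6133 regions gained (48.8%) and 1096 lost (8.73%). Below 100 reads the calls hardly moved, from 4712 gained and 697 lost to 4714 and 614. At 100 reads or more they went from 350 gained and 4967 lost to 1419 and 482. Since 0.26 was added to each change, all 3856 regions with an absolute change under 0.25 were higher in Tg197 after recentring, of which 1905 had been called lost. Reads in the listed autosomal regions ranged from 2127072 to 2744170 per library, and the total depth of a library is not known. The median over listed regions was 0.10 to 0.19 log2 units above the mean of all libraries in WT and 0.12 to 0.15 below it in Tg197.

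**Figure D2:**
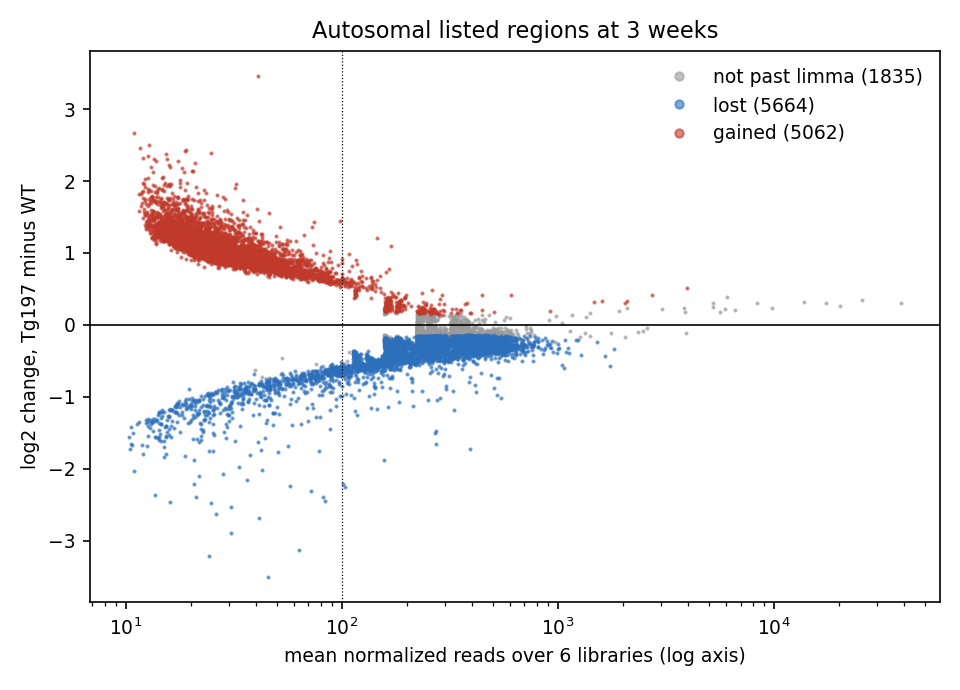
Each point is 1 of 12561 autosomal regions, with its mean normalized reads over 6 libraries on a logarithmic horizontal axis and its log2 change on the vertical axis. The dotted line marks 100 reads. Red points (5062 gained) fill the weakly captured side and blue points (5664 lost) the strongly captured side, and the smallest listed change shrinks as the read level rises.

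The mix of gains and losses was then read by feature class. Of 673 promoter regions (within 3 kb of a start), 295 gained and 272 lost, with 47.1% higher in Tg197. Gene bodies held 5833 regions (2478 gained, 2459 lost, 45.8% higher) and intergenic sequence 6055 (2289 gained, 2933 lost, 40.3% higher). After recentring 355 promoter regions gained and 57 lost, 3020 and 443 in gene bodies, and 2758 and 596 in intergenic sequence, which turned each class to mostly higher. Within 250 bp of a start 13 regions gained and 33 lost (18 and 6 recentred), between 250 bp and 1 kb 55 and 65 (71 and 15), and from 1 to 3 kb 227 and 174 (266 and 36). The median read level fell along the same order, from 230.3 through 160.3 to 87.4 normalized reads. At 100 reads or more, 4 of 40 regions within 250 bp, 12.3% of those from 250 bp to 1 kb and 13.2% of those from 1 to 3 kb were higher in Tg197, against 10.04% of all regions there. Promoter regions upstream of the start (205 regions, median level 42.4) were higher in 59.5%, and those downstream (468 regions, median level 167.9) in 41.7%. Whether the read level accounts for the difference between classes was not tested.

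**Figure D3:**
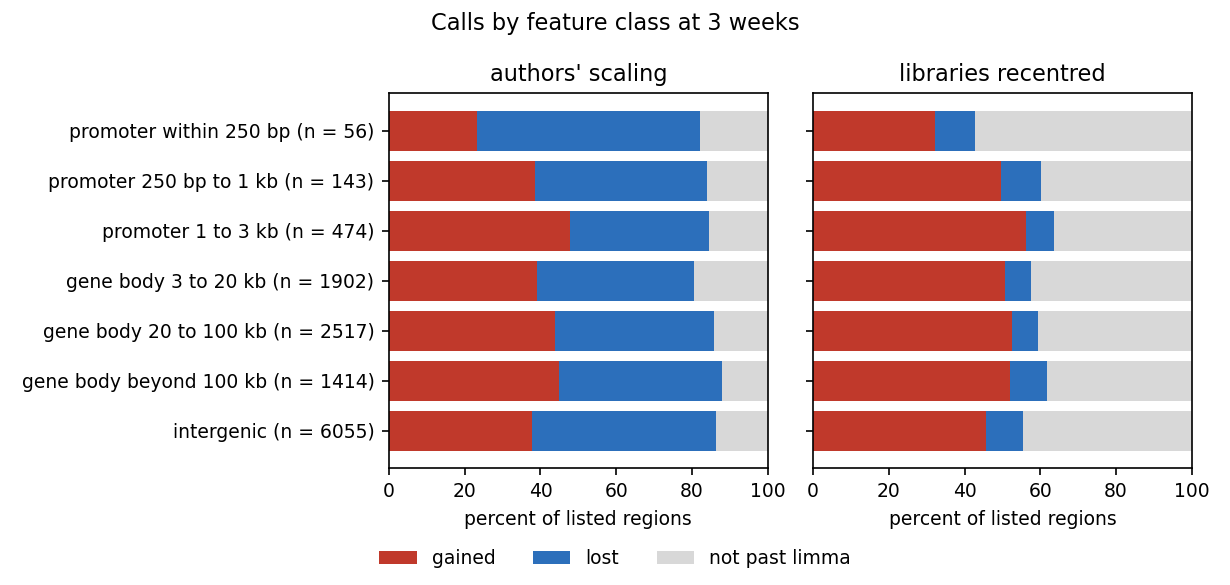
Stacked bars show the percent of listed regions gained, lost or not past limma in each feature class and distance to the start, under the authors' scaling (left) and with libraries recentred to equal medians (right). On the left, losses lead within 250 bp of a start (33 of 56) and gains lead from 1 to 3 kb (227 of 474). On the right, gains lead in every class.

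Promoter flanks, 250 bp to 3 kb from the start, held large changes too. Those described here held their direction and call after recentring, which can only enlarge a gain. Capture fell at Nfkbia, which encodes the inhibitor that holds NF-kB in the cytoplasm and is itself induced by it (chromosome 12, 56591201 to 56592100, 1 to 3 kb from the start). The values were 40.4, 40.7 and 45.4 normalized reads in WT libraries 1 to 3 and 17.3, 16.97 and 9.89 in Tg197 libraries 1 to 3. Each WT value was more than 2 times each Tg197 value (log2 change -1.495, standard error 0.27, limma adjusted p = 0.0015). Losses of similar size were found at Thyn1 (from 21.02 ± 3.73 to 7.60 ± 1.91, log2 change -1.37) and at the unnamed transcripts 4930453N24Rik (-1.56) and 4930473A06Rik (-1.54). Capture rose at Hif1an, whose product hydroxylates and restrains HIF-1 (chromosome 19, 44634351 to 44634850), with 13.2, 13.6 and 2.27 in WT and 30.2, 26.4 and 28.7 in Tg197 (log2 change 1.75, standard error 0.45, limma adjusted p = 0.00296). WT library 3 was far below the other WT libraries there, the groups did not overlap, and the change was 1.03 without that library. It rose likewise at Sec11a, a catalytic subunit of signal peptidase (from 6.14 ± 4.17 to 20.3 ± 2.17, 1.78), at Wdr45l, an autophagy gene (7.44 ± 4.95 to 23.5 ± 5.48, 1.70), and at Cog3, a Golgi tethering subunit (6.25 ± 4.33 to 19.03 ± 2.46, 1.65). The largest promoter gain, at the unnamed transcript 9530008L14Rik, rested on WT values of 0, 6.33 and 13.6 against 18.4, 27.3 and 26.7 in Tg197 (log2 change 2.38, standard error 0.66, limma adjusted p = 0.00393). It was 1.26 without WT library 1 and did not pass limma without a mean trend. D630003M21Rik followed (2.01).

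The largest gene-body gains lay at weakly captured sites. Tbx20, a T-box transcription factor gene of the heart (chromosome 9, 24541751 to 24542650), gave 3.76, 5.43 and 6.82 normalized reads in WT libraries 1 to 3 and 28.1, 31.1 and 37.6 in Tg197 libraries 1 to 3. The lowest Tg197 value was far above the highest WT value (log2 change 2.41, standard error 0.32, limma adjusted p = 0.000635). Jak1, the kinase of interferon and IL-6 family receptors (chromosome 4, 100851701 to 100852200), gave 11.3, 3.62 and 1.14 in WT and 17.3, 20.7 and 19.8 in Tg197, with WT library 1 nearest to the Tg197 range (log2 change 2.03, standard error 0.49, limma adjusted p = 0.0025). Sh3bp2, an adaptor mutated in the inflammatory jaw disease cherubism, rose from 5.76 ± 4.61 to 23.8 ± 9.45 (2.04), and the glypican gene Gpc5 from 4.71 ± 2.55 to 20.6 ± 1.16 (2.04). At the synaptic scaffold gene Dlgap2 (2.50), the tubulin-modifying gene Ttll11 (2.34), the clathrin-uncoating kinase gene Gak (2.28) and the kinase gene Lrrk2 (2.25), 1 WT library had 0 reads. Without that library the changes were 1.53, 1.32, 1.02 and 0.88. For Lrrk2 the values were 0, 13.6 and 19.3 in WT and 28.1, 28.3 and 36.6 in Tg197 (log2 change 2.25, standard error 0.74, limma adjusted p = 0.0105). Lrrk2, Gak and Ttll11 did not pass limma without a mean trend.

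Several of the largest gene-body losses lay in the first part of chromosome 9 and are described with it, and others lay elsewhere. Rnasen, which encodes the microRNA-processing enzyme Drosha (chromosome 15, 12861151 to 12861650), gave 28.2, 26.2 and 22.7 normalized reads in WT libraries 1 to 3 and 0, 10.4 and 8.90 in Tg197 libraries 1 to 3. Tg197 library 1 had 0 reads and the groups did not overlap (log2 change -2.46, standard error 0.64, limma adjusted p = 0.00306). The change was -1.33 without that library, and it did not pass limma without a mean trend. Susd5, a sushi domain gene (chromosome 9, 113977251 to 113978000), gave 25.4, 24.4 and 23.9 in WT and 6.48, 5.66 and 6.92 in Tg197, with little spread in either group (log2 change -1.80, standard error 0.30, limma adjusted p = 0.00146).

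Strongly captured regions, with at least 200 reads in the higher group, gained by less. The largest such gain lay in an intergenic region (chromosome 15, 7800451 to 7801500), with 76.1, 95.9 and 88.6 in WT and 171, 173 and 273 in Tg197 (log2 change 1.21, standard error 0.15, limma adjusted p = 0.000359). Tg197 library 3 was well above the other Tg197 libraries. Another lay at chromosome 13, 99901701 to 99903250 (109, 72.4 and 149.96 in WT and 251, 208 and 226 in Tg197, 1.10). The 12 regions with the highest capture of all, with means from 5238 to 38736 reads, were higher in Tg197 by 0.18 to 0.39. Of these 0 passed limma, 0 had an unadjusted p under 0.05, 1 passed with limma voom on recovered reads, and 3 passed after recentring. The standard errors, which borrow the spread fitted for each read level, ran from 0.23 to 1.81 and rose with the mean. The largest belonged to a region with 34344 ± 222 reads in WT and 43127 ± 7914 in Tg197. With errors of that size, the lack of calls does not show a lack of change. At Lars2, a mitochondrial tRNA synthetase gene, the Tg197 libraries gave 29210, 33431 and 23235 reads against 21788, 23119 and 21884 in WT, with Tg197 library 3 closest to WT. How reads matching several copies were placed is not given in the sources used here.

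Losses of at least 1 log2 unit were unevenly spread. The first 25 Mb of chromosome 9, a limit set after the values were seen, held 43 of the 310 such losses among 232 listed regions (18.5%), against 9 of 498 (1.81%) on the rest of that chromosome. At Gucy1a2, a subunit of the nitric oxide receptor guanylate cyclase (chromosome 9, 3887351 to 3887950), the values were 209, 131 and 142 normalized reads in WT libraries 1 to 3 and 74.5, 60.3 and 6.92 in Tg197 libraries 1 to 3. Tg197 libraries 1 and 2 were lower than WT and library 3 was near 0 (log2 change -2.25, standard error 0.54, limma adjusted p = 0.00247). Without Tg197 library 3 the change was -1.22. Casp12, an inflammatory caspase gene (chromosome 9, 5364551 to 5365750), gave 256, 206 and 229 in WT and 127, 108 and 16.8 in Tg197 (log2 change -1.87, standard error 0.46, limma adjusted p = 0.00266, or -0.96 without Tg197 library 3). Tg197 library 3 was also lowest at the glutamate receptor gene Gria4 (68.5, 56.1 and 60.2 in WT and 45.4, 25.5 and 1.98 in Tg197, -2.02, or -0.83 without it) and at 2 regions of the giant cadherin gene Fat3, of which the first gave 50.7, 61.5 and 47.7 in WT and 24.8, 33.9 and 0.99 in Tg197 (-2.15, or -0.85 without it) and the second 27.2, 38.9 and 37.5 in WT and 9.72, 13.2 and 0.99 in Tg197 (-2.39, or -1.51 without it). Gucy1a2, Casp12, Gria4 and the first Fat3 region did not pass limma without a mean trend. Tg197 library 3 was the lowest of all 6 libraries at 38 of the 43 regions. Their median value was 138.0, 110.4 and 114.7 in WT libraries 1 to 3 and 65.9, 56.6 and 14.8 in Tg197 libraries 1 to 3. Without Tg197 library 3 only 23 regions of the stretch were lost by at least 1 log2 unit. Within the stretch a promoter region of Fat3 went the other way, with 41.3, 47.96 and 62.5 in WT and 92.9, 93.3 and 119 in Tg197 (log2 change 1.00, standard error 0.17, limma adjusted p = 0.00146), and S1pr2, a sphingosine 1-phosphate receptor gene, gained 1 to 3 kb from its start (17.2 ± 3.19 to 46.4 ± 16.2, 1.33). In all, 59 regions of the stretch gained, 29 of them by at least 1 log2 unit, and 154 were lost. The Tbx20 gain described above lies in the stretch too.

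A second stretch, on chromosome 15 from 12 to 26 Mb, held 17 large losses among 78 listed regions (21.8%), against 14 of 564 (2.48%) on the rest of that chromosome. It includes Rnasen and a run of intergenic regions such as chromosome 15, 20849351 to 20850250, with 67.6, 33.5 and 24.99 in WT and 1.08, 17.9 and 0.99 in Tg197 (log2 change -3.21, standard error 0.64, limma adjusted p = 0.00172). Here WT library 1 was the highest at most regions: relative to the WT mean, the medians of WT libraries 1 to 3 were 0.66, 0.03 and -0.54 log2 units and those of Tg197 libraries 1 to 3 were -1.74, -1.01 and -1.64. Leaving out 1 library at a time gave from 12 large losses (without WT library 1) to 21 (without WT library 3) in this stretch. In all, 21 of its regions gained, 11 of them by at least 1 log2 unit, and 50 were lost. At the other 250 large losses the medians of the libraries of a group lay close together, between -0.01 and 0.03 in WT and between -1.26 and -1.17 in Tg197. The largest loss among autosomal regions was intergenic (chromosome 9, 13264851 to 13265900) and belongs to the 43 large losses of the chromosome 9 stretch. It gave 98.6, 81.4 and 68.2 in WT and 6.48, 1.89 and 16.8 in Tg197 (log2 change -3.51, standard error 0.45, limma adjusted p = 0.000505). Its groups were far apart, and Tg197 library 3 was the highest of the Tg197 libraries at this region, whereas it was the lowest at 38 of the 43.

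**Figure D4:**
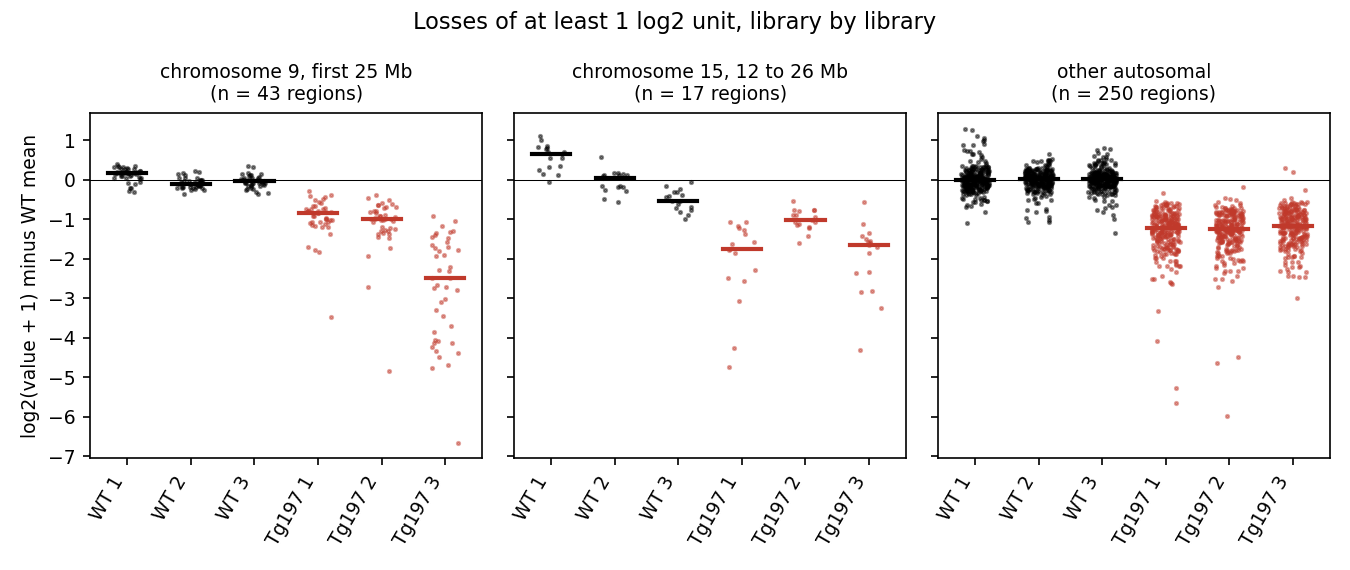
Each point is a region lost by at least 1 log2 unit, plotted per library as log2(value + 1) minus the mean of the 3 WT libraries, with bars at the medians, for 43 regions in the first 25 Mb of chromosome 9, 17 regions between 12 and 26 Mb of chromosome 15 and 250 other autosomal regions. Tg197 library 3 has a median of -2.50 on chromosome 9, against -0.86 and -0.99 in libraries 1 and 2, while the 3 Tg197 libraries lie together in the last panel.

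Pathway genes were then read from 15 lists. The lists were drawn up for this comparison and hold every listed region of their genes. For scale, over all autosomal regions 40.3% gained and 45.1% lost, with a median log2 change of -0.12. Growth factor and receptor genes (28 of 56 genes had a region) held 44 regions (17 gained and 22 lost, 19 and 4 after recentring, median log2 change -0.18). Capture rose in the insulin-like growth factor receptor gene Igf1r, with 60.1, 70.6 and 63.6 normalized reads in WT libraries 1 to 3 and 112, 112 and 98.9 in Tg197 libraries 1 to 3 (log2 change 0.73, standard error 0.13, limma adjusted p = 0.00146), and in the receptor kinase gene Alk, from 32.8 ± 2.59 to 63.03 ± 7.82 (0.92). Neither pair of groups overlapped. Genes of the Ras and MAP kinase cascade held 37 regions (12 gained and 19 lost, 15 and 2 after recentring, median log2 change -0.15). Map2k5, the kinase upstream of ERK5, rose from 24.6 ± 0.994 to 51.04 ± 2.93 (log2 change 1.02, standard error 0.20, limma adjusted p = 0.00167), and so did the atypical kinase gene Mapk4 (1.03), while Map3k5, a stress kinase activated downstream of TNF receptors, fell from 561 ± 58.1 to 429 ± 12.8 (-0.38, -0.12 and not past after recentring). PI3 kinase, Akt and mTOR genes held 24 regions (9 gained and 11 lost, 11 and 4 after recentring, median log2 change -0.14). Capture fell at Prkaa1, the catalytic subunit of the energy sensor AMPK (119, 140.3 and 125 in WT and 92.9, 85.8 and 72.2 in Tg197, log2 change -0.61, standard error 0.12, limma adjusted p = 0.00166) and at the leukocyte PI3 kinase gene Pik3cd (-0.51). It rose near the start of Rictor, a subunit of mTOR complex 2 (34.8 ± 5.55 to 65.1 ± 7.76, 0.89).

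Genes of cell movement and shape came next. Small GTPases of the cytoskeleton and their regulators held 69 regions (32 gained and 21 lost, 44 and 4 after recentring, median log2 change -0.03). Elmo1, a partner of the DOCK exchange factors for Rac (chromosome 13, 20285201 to 20286100), gave 12.2, 14.5 and 13.6 normalized reads in WT libraries 1 to 3 and 42.1, 30.2 and 58.4 in Tg197 libraries 1 to 3. The Tg197 values spread widely yet stayed above WT (log2 change 1.58, standard error 0.27, limma adjusted p = 0.00146). In Trio, a double exchange factor for Rac and RhoA with 5 gained and 3 lost regions among 9, 1 region gave 10.3, 25.3 and 21.6 in WT and 56.2, 55.6 and 49.5 in Tg197 (1.53), and Rhoq rose from 34.8 ± 7.96 to 72.7 ± 7.42 (1.06). In the family of Arhgap and Arhgef genes, with 41 regions (20 gained and 16 lost, 25 and 5 after recentring, median log2 change 0.25), 1 region of Arhgap26, a gene with 5 gained and 2 lost regions, fell from 102 ± 10.5 to 46.2 ± 13.6 (log2 change -1.15, standard error 0.18, limma adjusted p = 0.00142, -0.89 recentred). Regions of Arhgef16 (-0.59) and Arhgef10l (-0.77) fell as well. Guidance cues and receptors held 52 regions (19 gained and 30 lost, 21 and 5 after recentring, median log2 change -0.18). Sema4d, a semaphorin that acts between bone cells and in immunity (chromosome 13, 51812651 to 51813200), fell with 131, 97.7 and 79.5 in WT and 62.6, 47.1 and 57.4 in Tg197 (log2 change -0.85, standard error 0.17, limma adjusted p = 0.00177). The ligand gene Slit3 gained at all 4 of its regions, by 0.79 to 0.97, and the netrin receptor gene Unc5a fell by a small amount (-0.41, -0.15 and not past after recentring).

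Developmental signalling lists were small. Notch genes held 18 regions (6 gained and 7 lost, 8 and 0 after recentring, median log2 change -0.13). The receptor gene Notch1 rose from 36.02 ± 4.87 to 62.03 ± 2.81 (log2 change 0.78, standard error 0.18, limma adjusted p = 0.00233), whereas Notch2 (-0.35) and the coactivator gene Maml3 (-0.30) fell at strongly captured regions and did not pass after recentring (-0.08 and -0.04). Hedgehog genes held 13 regions (6 gained and 6 lost, 7 and 1 after recentring, median log2 change -0.12), with gains at 2 regions of the Gli-related factor gene Glis3 (1.71 and 1.16) and a loss at the inhibitor gene Sufu (-0.33, -0.06 and not past after recentring). Hippo genes held 22 regions (7 gained and 9 lost, 10 and 2 after recentring, median log2 change -0.11). Capture rose 1 to 3 kb from the start of Sav1, the scaffold of the core kinases, from 15.2 ± 2.43 to 35.5 ± 2.97 (log2 change 1.18, standard error 0.25, limma adjusted p = 0.00194), and fell at the phosphatase gene Ptpn14 (-0.40, -0.13 and not past after recentring). Mesenchymal and developmental transcription factors held 73 regions (33 gained and 29 lost, 37 and 10 after recentring, median log2 change -0.08). Within Tshz2, a zinc finger factor gene of connective tissue, 2 regions fell, the first with 127, 104 and 92.02 in WT and 54.00, 49.03 and 59.3 in Tg197 (log2 change -0.97, standard error 0.15, limma adjusted p = 0.00132) and the second from 39.2 ± 6.63 to 11.7 ± 6.20 (-1.76). Foxn3 rose from 32.8 ± 5.32 to 72.5 ± 11.1 (1.12).

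Nuclear receptor and lipid mediator genes included several drug targets. Nuclear receptors and coregulators held 31 regions (14 gained and 10 lost, 17 and 2 after recentring, median log2 change -0.07). Nr3c1, the glucocorticoid receptor gene (chromosome 18, 39635851 to 39636800), gave 23.5, 38.9 and 26.1 normalized reads in WT libraries 1 to 3 and 71.3, 60.3 and 77.2 in Tg197 libraries 1 to 3. All Tg197 libraries were above all WT libraries (log2 change 1.24, standard error 0.21, limma adjusted p = 0.00146). Nr1h4, the bile acid receptor gene, fell from 108 ± 16.97 to 61.3 ± 1.66 (-0.79, -0.53 recentred), and Nr4a2, an immediate early receptor gene, fell 1 to 3 kb from its start (-0.45, -0.19 and not past after recentring). Prostaglandin and lipid mediator genes held 17 regions (7 gained and 7 lost, 10 and 2 after recentring, median log2 change -0.06). Besides S1pr2, capture rose at the secreted phospholipase gene Pla2g2e (9.83 ± 2.15 to 27.3 ± 10.7, 1.34), and it fell at Enpp2, the autotaxin gene that is active in arthritic synovial fibroblasts (186 ± 11.3 to 143 ± 10.4, -0.38, -0.11 and not past after recentring).

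Second messenger genes held more regions. Cyclic nucleotide genes held 60 regions (30 gained and 25 lost, 33 and 8 after recentring, median log2 change 0.13), with a median level of 65.4 reads. Pde4a, a cAMP phosphodiesterase gene targeted by anti-inflammatory drugs (chromosome 9, 20981651 to 20982650), fell with 122, 119 and 112 normalized reads in WT libraries 1 to 3 and 48.6, 67.9 and 77.2 in Tg197 libraries 1 to 3. The groups were well apart (log2 change -0.88, standard error 0.15, limma adjusted p = 0.00146), and Pde4a lies in the chromosome 9 stretch. Calcium signalling genes held 107 regions (44 gained and 43 lost, 53 and 10 after recentring, median log2 change -0.09). Prkce, a protein kinase C gene, lost capture at chromosome 17, 86656801 to 86657450 (135 ± 42.8 to 66.6 ± 14.7, -0.98) and gained it at chromosome 17, 86836051 to 86836950 (44.99 ± 10.3 to 82.03 ± 6.65, 0.87). Nfatc2, a calcium-regulated transcription factor gene, fell from 133 ± 4.46 to 81.01 ± 17.9 (log2 change -0.73, standard error 0.14, limma adjusted p = 0.00166), and the calcineurin gene Ppp3ca by less (-0.46, -0.20 and not past after recentring). Cacna1c, a calcium channel gene, gained at all 4 of its regions, by 0.72 to 1.27.

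Hypoxia and glycolysis genes held 18 regions (3 gained and 10 lost, 7 and 3 after recentring, median log2 change -0.22), the pathway list with the smallest share of regions higher in Tg197 (22.2%). The list had a median level of 207 reads, and of all regions at 100 reads or more 10.04% were higher in Tg197. Epas1, which encodes the hypoxia factor HIF-2 alpha (chromosome 17, 87209251 to 87209750), gave 43.2, 33.5 and 32.95 normalized reads in WT libraries 1 to 3 and 11.9, 15.1 and 17.8 in Tg197 libraries 1 to 3. Each Tg197 value lay below each WT value (log2 change -1.24, standard error 0.26, limma adjusted p = 0.00183, -0.98 recentred). The phosphofructokinase genes Pfkm (-0.38) and Pfkfb2 (-0.39) fell at strongly captured regions and did not pass after recentring (-0.12 and -0.13). Toll-like and innate sensing genes held 9 regions (3 gained and 5 lost, 4 and 0 after recentring, median log2 change -0.15). Irak4, the kinase that transmits IL-1 and Toll-like receptor signals, gained 1 to 3 kb from its start (22.5, 22.6 and 19.3 in WT and 43.2, 43.4 and 40.5 in Tg197, log2 change 0.95, standard error 0.22, limma adjusted p = 0.00231) and fell in its body (-0.42, -0.15 and not past after recentring, or -0.23 without WT library 1). The body region did not pass limma without a mean trend. Nlrx1, a mitochondrial regulator of innate signalling, rose from 44.1 ± 2.24 to 79.01 ± 21.4 (0.80). Among interleukins, chemokines and their receptors there were 17 regions (10 gained and 6 lost, 11 and 3 after recentring, median log2 change 0.42). The median level of these regions was 90.3 reads, and 87.0% of all regions below 100 reads were higher in Tg197. Il1r1, the signalling receptor for IL-1 (chromosome 1, 40317101 to 40317700), rose with 114, 126 and 102 normalized reads in WT libraries 1 to 3 and 166, 158 and 161 in Tg197 libraries 1 to 3 (log2 change 0.51, standard error 0.10, limma adjusted p = 0.00164). Cxcr7, an atypical receptor that scavenges the chemokine CXCL12, fell from 110.4 ± 6.77 to 70.2 ± 6.28 (-0.65, -0.38 recentred), and Il20rb fell as well (-0.55).

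Gene families read by symbol gave a wide range of shares. Among the 14 families with at least 20 regions, the share higher in Tg197 ran from 21.9% in olfactory and vomeronasal receptors, with 32 regions (5 gained and 21 lost, 8 and 5 after recentring, median log2 change -0.20), to 56.1% in the Arhgap and Arhgef genes. The receptor family had a median level of 225.7 reads and the Arhgap and Arhgef genes one of 65.2, and over all regions the share higher in Tg197 was lower at 100 reads or more, as given above. Solute carriers held 143 regions (53 gained and 62 lost, 73 and 10 after recentring, median log2 change -0.10), ubiquitin ligases and deubiquitinases 107 regions (45 gained and 46 lost, 53 and 11 after recentring, median log2 change -0.11), and Zfp zinc finger genes 94 regions (36 gained and 41 lost, 47 and 2 after recentring, median log2 change -0.11). Potassium channel genes held 51 regions (27 gained and 19 lost, 29 and 7 after recentring, median log2 change 0.54), and protein tyrosine phosphatases 41 regions (19 gained and 13 lost, 24 and 1 after recentring, median log2 change 0.03). The potassium channel genes had a median level of 71.8 reads, and 87.0% of all regions below 100 reads were higher in Tg197. Capture rose at the receptor phosphatase gene Ptprk (47.03 ± 15.96 to 101 ± 19.3, 1.12) and fell at Ptpn11, the SHP2 phosphatase gene of growth factor and cytokine signalling (322 ± 38.4 to 238 ± 5.61, -0.43, -0.16 and not past after recentring). Of kinesin, dynein and myosin genes, with 75 regions (32 gained and 26 lost, 41 and 3 after recentring, median log2 change 0.05), Myo5b rose from 39.8 ± 11.6 to 94.3 ± 13.2 (log2 change 1.25, standard error 0.20, limma adjusted p = 0.00142). Adhesion genes of the immunoglobulin superfamily held 58 regions (22 gained and 29 lost, 27 and 9 after recentring, median log2 change -0.16), with losses at 2 regions of Cntn1 (-0.82 and -0.49).

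Marker genes of synovial fibroblasts and of other cell types a joint culture could hold were listed too. A capture value gives no expression, so the labelled cell type cannot be checked from these regions. Of 13 synovial fibroblast markers 4 had a region, with 2 gains and 3 losses among 6 regions, and Pdgfrb, a mesenchymal growth factor receptor gene, rose from 27.8 ± 7.34 to 51.5 ± 5.30 (0.89). Of the cartilage, bone and fat markers 4 of 10 had a region, and all 5 of their regions were higher in Tg197, 4 of them past limma. Their median level was 44.7 normalized reads, and 87.0% of all regions below 100 reads were higher in Tg197. Capture rose at 2 regions of the cartilage proteoglycan gene Acan (1.10 and 0.76) and at Runx2, the osteoblast factor gene, with 15.02, 13.6 and 11.4 in WT and 23.8, 28.3 and 33.6 in Tg197 (log2 change 1.04, standard error 0.27, limma adjusted p = 0.0031). Skeletal muscle markers held 16 regions (5 gained, 7 lost), endothelial and mural markers 6 (2 and 2), lymphocyte markers 5 (4 and 1), macrophage and osteoclast markers 3 (1 and 2) and Schwann cell markers 1, a gain at Erbb3 (0.72). Within Actn2, a muscle actinin gene, 1 region fell (-0.54) and another rose (0.63). A change in the mix of cells in culture was not tested.

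Most genes with several regions held changes in both directions. Of 453 genes with at least 3 regions, 315 held both gained and lost regions, in 36 all regions gained, and in 18 all were lost. Since 40.3% of all autosomal regions gained and 45.1% lost, such a mix is common in any set of several regions. No comparison with regions of unrelated genes was made. The genes with most regions were as follows. Wwox, a tumour suppressor gene in a fragile site, had 15 regions (4 gained, 9 lost), Prkce 13 (4 and 8), Agap1 12 (5 and 4), Dnahc8 12 (2 and 3), the repeated RNA gene Rn4.5s 11 (4 and 0), and Ank3, Fndc3b, Gpc6 and Mast4 10 each. Apbb2 had 9, as had other genes. After recentring, 4 Wwox regions gained and 2 were lost. Within Mast4, a kinase gene, 5 regions gained and 3 were lost, among them chromosome 13, 103577701 to 103578950, with 56.3, 63.3 and 60.2 in WT and 105, 127 and 113 in Tg197 (log2 change 0.92, standard error 0.13, limma adjusted p = 0.000743). Fryl was the gene with most regions all in a single direction, 8 losses of -0.46 to -0.17, of which 1 passed after recentring. Btbd11 followed with 6 gains of 0.20 to 1.09, all of which passed after recentring, which can only enlarge a gain.

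In windows of 2 Mb, of which 1213 held a region, the median was 9 regions. The densest window, chromosome 17 from 86 to 88 Mb, held 49 (22 gained, 23 lost), at Prkce, Epas1 and Socs5 among others. It was followed by chromosome 8 from 126 to 128 Mb with 42 (16 and 16), chromosome 16 from 92 to 94 Mb with 41 at Rcan1, Runx1 and Cldn14 among others (18 and 16), and 4 windows of 40, on chromosome 18 from 74 to 76 Mb (21 and 17), chromosome 9 from 20 to 22 Mb (16 and 17), chromosome 2 from 168 to 170 Mb with Tshz2 and Nfatc2 (11 and 24) and chromosome 8 from 124 to 126 Mb (6 and 23). The windows on chromosomes 17 and 2 each held 7 losses of at least 1 log2 unit, beside 11 and 6 gains of that size. Of all 12561 autosomal regions, 310 were lost and 2679 gained by as much.

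Few of these regions were listed again at later ages, in tables with their own libraries and scaling. Of the 3-week regions 524 (4.17%) overlapped a region listed at 8 weeks, which was 4.80% of that list, and 298 (2.37%) overlapped the 11-week list (4.25% of it). Limma passed 57.8% of autosomal regions at 8 weeks and 78.8% at 11 weeks. Of the pairs past limma at 3 and 8 weeks, 16 were gained at both, 58 lost at both and 118 changed in opposite directions. At 3 and 11 weeks 57 were gained at both, 97 lost at both and 22 opposite. These directions hold under the authors' scaling of each age, and the later tables were not recentred. At 8 weeks Tg197 libraries 1 to 3 had 0 reads at 319, 58 and 543 autosomal regions, against 18, 18 and 23 in WT. Whether scaling or depth bears on the opposite pairs was not tested. Of the 51 regions with a 3-week change over 2 log2 units, 9 were listed at 8 weeks (17.6%) and 6 at 11 weeks (11.8%), and 9 regions of any size were listed at all 3 ages. These shares were not tested against each other.

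Some regions that recurred lay in the stretches described above. At 11 weeks the large-loss region in Gucy1a2 gave 571, 482 and 483 in WT and 187, 269 and 46.6 in Tg197 (log2 change -1.93, limma adjusted p = 0.0219), with the third Tg197 library again lowest. Casp12 gave 103, 80.04 and 114 in WT and 40.7, 58.4 and 13.8 in Tg197 (-1.58), also with the third Tg197 library lowest. An intergenic region of the stretch (chromosome 9, 5927801 to 5928400), with 124, 85.97 and 92.02 in WT and 49.7, 29.2 and 0 in Tg197 at 3 weeks (-3.12, or -1.36 without Tg197 library 3, and not past without a mean trend), was at -2.10 at 11 weeks. A library's position in its cell is not a replicate number, and the libraries of different ages are separate samples. Over the whole chromosome 9 stretch, 10 of 44 regions at 8 weeks were lost by at least 1 log2 unit past limma (22.7%). The share was higher on the rest of that chromosome (39.0%). At 11 weeks such losses were 45 of 124 regions of the stretch (36.3%), against 23.4% on the rest. The median log2 change of the stretch was 0.57 at 8 weeks and -0.77 at 11 weeks. On chromosome 15, losses of at least 1 log2 unit past limma made up 51 of 93 regions of the stretch at 8 weeks (54.8%), against 218 of 449 on the rest of that chromosome (48.6%). At 11 weeks they were 1 of 15 (6.67%) against 14 of 232 (6.03%). Single losses were listed again at 8 weeks: Rnasen with 37.2, 37.5 and 18.8 in WT and 6.63, 14.5 and 5.88 in Tg197 (-1.72), the region from 20849351 with -3.24, and that from 18997151 with -3.55, all past limma. The region from 14670101 overlapped 2 regions at 8 weeks, of which 1 passed (-3.40) and the other had -2.42. At 3 weeks the region from 14670101 gave 223, 142 and 62.5 in WT and 14.04, 46.2 and 16.8 in Tg197 (-2.44) and that from 18997151 gave 79.8, 24.4 and 24.99 in WT and 5.40, 11.3 and 2.97 in Tg197 (-2.47). An intergenic region on chromosome 11, chromosome 11, 60861301 to 60862000, had the largest 3-week gain of all (3.46), yet its WT libraries gave 0.94, 0 and 73.8 reads against 54.0, 55.6 and 61.3 in Tg197, so the groups overlapped. Without WT library 3 the change was 5.38 and without WT library 2 it was 2.26, and it did not pass without a mean trend. At 8 weeks it was lower in Tg197 (-1.45).

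**Figure D5:**
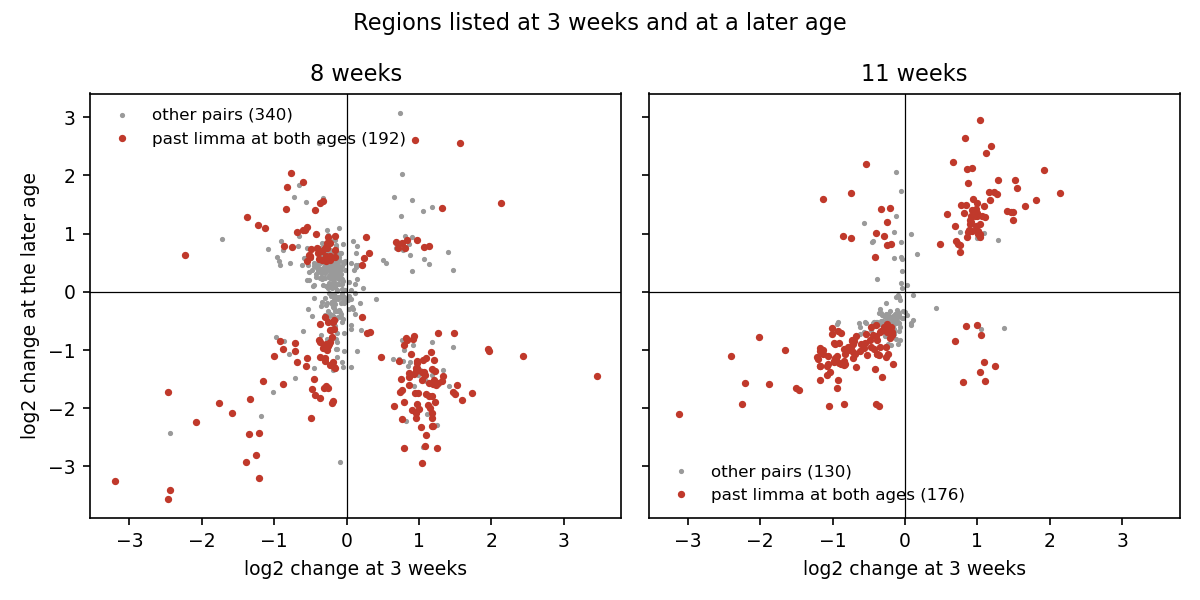
Each point is a pair of overlapping regions, with its log2 change at 3 weeks on the horizontal axis and at 8 weeks (left) or 11 weeks (right) on the vertical axis. Red points passed limma at both ages (192 and 176 pairs). At 8 weeks many pairs lie in opposite quadrants (118 past both), and at 11 weeks most lie in the same quadrant (154 of 176). All changes are under the authors' scaling.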

How the data were processed

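Regions at 3 weeks were analysed as the authors listed them. The smallest listed change falls as the read level rises, from which a selection of regions for a difference is inferred, so every test is a retest of selected regions and shares describe the list, not the genome. Per the file headers, each region carries 3 normalized read values per group, a signal that the authors derived from reads. Whole reads within 0.1 were recovered for 100% of these values with 1 size factor per library, and limma voom on them passed 10818 autosomal regions. The deposited log2 fold change and the deposited adjusted p-value of each region are the authors' own and served as an alternative. The build is mm9, and BWA, TopHat2, TopHat, Cuffdiff and Cufflinks are named without a role, per the submitters' processing notes. How the regions were selected, by which program and filters, is not given in the sources used here. Sonicated DNA was captured with a methyl-CpG-binding kit and its low-salt and high-salt eluates pooled, per the labels' protocols. The RNA and H3K4me3 profiles and the TNF treatment table were not analysed here.

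Values of the 3-week table, X and Y included, were fitted with limma (version 3.58.1, R 4.3.3) with a mean trend on log2(value + 1), with no filter and Benjamini-Hochberg adjustment over all 13125 regions, at 0.05. The fit was tested on simulated data. Promoter sequences came from RefSeq (GRCm38.p6). The 8-week and 11-week tables were fitted separately. Gene lists and families are described by counts and medians. Regions to name were the 8 largest gains and losses of each feature class and the 6 largest each at 200 reads or more, past limma, without overlap of the groups and averaging 10 reads or more in whichever group was higher. Added were the 10 genes with most regions, the 6 densest windows, up to 3 regions of smallest p for each list and family, and the 6 largest changes past limma at 3 weeks and another age, without those conditions. The promoters within 250 bp of a start and the chromosome 9 and 15 stretches, and regions in the genes with all regions in a single direction, were chosen after their values were seen. Libraries are named by their position in the deposited cell. The members, the lists and the rule were chosen with earlier results of these data known. Alternatives were other pseudocounts, a filter, leaving out each library, recentred libraries, limma voom, no trend, size limits, autosomes alone and the deposited p-values. All columns were assigned (0 left out). Some results are not reported here.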

Additional observations from a re-analysis of the deposited data

Results flagged for a closer look

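Changes in opposite directions at 2 ages were found at 4 named regions, with every Tg197 library on opposite sides of the WT libraries; the differences between ages were not tested. An intergenic region (chromosome 13, 99901701 to 99903250) rose by 1.10 log2 units at 3 weeks, and the 2 regions that overlap it at 8 weeks changed by -1.75 and -1.13. Another (chromosome 13, 108339751 to 108340250) rose by 2.43 (1.19 without WT library 2) and stood at -1.10 at 8 weeks. The promoter region of Mtnr1a, a melatonin receptor gene, rose by 1.97 and stood at -1.02 at 8 weeks. A region of the repeated RNA gene Rn4.5s rose by 0.42 at 3 weeks and stood at -0.28 at 11 weeks, where it did not pass limma. After recentring at 3 weeks all 4 rises were larger, as the added constant makes every gain. On chromosome X, outside the autosomal comparison, 229 of 535 regions gained and 170 were lost at 3 weeks. On chromosome Y all 29 regions were lower in Tg197 and 28 were lost, with a median log2 change of -0.81. Summed values there were 4793, 3573 and 2449 in WT libraries 1 to 3 and 2253, 2012 and 2293 in Tg197 libraries 1 to 3, so WT library 1 was highest. Whether the make-up of the libraries behind this bears on the autosomal results was not tested. Groups of 3 were not tested for libraries that stand apart.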

How the results depend on the processing

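Recentring left 1096 lost regions and raised the share higher in Tg197 to 75.6% of promoter, 75.4% of gene-body and 68.8% of intergenic regions. The median log2 change became 0.18 in promoters, 0.18 in gene bodies and 0.11 in intergenic sequence. By distance it became 0.067 within 250 bp, 0.15 from 250 bp to 1 kb and 0.30 from 1 to 3 kb, and in gene bodies 0.17 from 3 to 20 kb, 0.18 from 20 to 100 kb and 0.19 beyond 100 kb. Recentring turned the sign of 8 of 216 regions examined singly: Acp5 (0.048), Serpina12 (0.043), Hoxa7 (0.00039), Hormad1 (0.042), Crygc (0.046), Prph2 (0.084), Piwil1 (0.10) and Prm2 (0.11). Another 29 lost their call and 1 gained it. Limma without a mean trend took the call from 24 of 216. With an absolute change of at least 0.5 required, 5958 regions passed and 1176 of them were lost. With at least 1, 2989 passed, 2679 gained and 310 lost. Limma voom on recovered reads passed 10818 and the authors' deposited adjusted p-value 11413. Leaving out 1 library at a time gave 9749 to 10428 regions past limma, 4959 to 5040 gained and 4790 to 5425 lost, and took the call from 2 to 5 of the 216. The median change then ranged from -0.097 to -0.053 in promoters (-0.219 to -0.154 within 250 bp, -0.140 to -0.087 from 250 bp to 1 kb and 0.031 to 0.061 from 1 to 3 kb), from -0.095 to -0.063 in gene bodies (-0.119 to -0.078 from 3 to 20 kb, -0.089 to -0.054 from 20 to 100 kb and -0.085 to -0.046 beyond 100 kb) and from -0.161 to -0.121 in intergenic sequence. The cause of these shifts was not tested, apart from the constant that recentring adds. The pseudocounts of 0.1 and 10, the filter and the fit over autosomes alone took no call from these 216. Requiring a larger overlap between ages left 390 regions shared with 8 weeks and 216 with 11 weeks. No paired analysis was possible because the values in the cells carry no replicate numbers. Total depth is not known, and the within-group spread was widest at regions under 20 reads.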
